A study of Homo sapiens and Mus musculus with 47 samples.

Results

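The SR splicing factor genes were the 10 genes SRSF1, SRSF2, SRSF3, SRSF4, SRSF5, SRSF6, SRSF7, SRSF9, SRSF10 and SRSF11, chosen by name, out of 57820 genes in the human tables and 55401 in the mouse tables. All 10 were found in each of the 5 count tables used, written in title case in mouse. Chrom-seq labels RNA near a histone mark in living cells. A reader domain fused to an array of GCN4 peptide tags recruits an antibody fragment carrying the peroxidase APEX2, which puts biotin-aniline on nearby RNA, and the labelled RNA is pulled down on streptavidin. In 3 cell lines the reader was that of TAF3, whose PHD finger binds H3K4me3, the mark of active promoters. These were HCT116 (human colorectal cancer), NIH3T3 (mouse embryonic fibroblast) and Neuro-2a (mouse neuroblastoma) cells, and the controls carried the tag array and APEX2 without a reader. The labels give 1 protocol for every sample, RNA-seq controls and ASO groups included: constructs expressed for 48 h, 500 µM biotin-aniline for 30 min and 1 mM H2O2 for 1 min. The methods of the study describe plasmid transfection, with the reader under a cytomegalovirus promoter and APEX2 under a chicken β-actin promoter. By RNA-seq, HEK293T cells, a human embryonic kidney line, were measured with the CBX7 reader, whose chromodomain binds H3K27me3, and as control cells. The study's text calls these control cells untreated, which conflicts with the protocol in their labels, so whether they carried constructs or took the labelling agents could not be settled. In a further RNA-seq experiment HEK293T cells took an antisense oligonucleotide (ASO) to lower a long noncoding RNA, which was SETD5-AS1, LINC00641 or LINC00662, or a negative control ASO (NC). The study's methods describe ASO transfection for ChIP-seq and imaging, with 48 h before harvest or staining, and name no constructs or labelling agents there. Whether the sequenced ASO cells had them, as their labels give, could not be settled either. There were 3 libraries a group, but 2 with the LINC00641 ASO. The study calls the replicates of the CBX7 comparison independent. Neither the labels nor the study's text say for the sequenced groups used here whether replicates were separate cultures, so the p-values measure the spread between these libraries, which may in part be technical.

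SR proteins carry RNA recognition motifs at the N terminus and a domain of arginine and serine repeats at the C terminus. They bind exonic enhancers and recruit the U1 and U2 snRNP machinery to splice sites, and kinases of the SRPK and CLK families phosphorylate their repeats. Many SR genes restrain their own protein by splicing in a poison exon, or an intron near the end of the gene, which sends the transcript to nonsense-mediated decay (NMD) or keeps it in the nucleus. In the GENCODE annotation of GRCh37 (v44lift37), 10 of the 10 human members had a transcript of the NMD class, against 38.8% of 20149 protein-coding genes, and 9 of 10 had a transcript with a retained intron, against 47.9%. In the annotation of GRCm38 (vM21), 9 and 8 of the 10 mouse members had such transcripts, against 20.9% and 41.6% of 21924 genes. SRSF7 had 6 transcripts of the NMD class, the most in human, and SRSF5 had 8 with a retained intron. The counts were made per gene, so none of these transcripts was measured on its own. The tables give each gene a start, an end and a length equal to its span. This is the layout of counting over whole gene spans, introns included, but the setting used is not stated.

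The oligonucleotides of the ASO experiment are shown because they define the groups in which the SR genes moved most. Each is written 5′ to 3′, and no part is marked by capitals.
SETD5-AS1-ASO-1: atcaatgaggatgtcatcac
SETD5-AS1-ASO-2: tcttgctatcatgacaatag
SETD5-AS1-ASO-3: cttacgcaacggataaagcc
LINC00641-ASO-1: gatgtggagcaacagaaatg
LINC00641-ASO-2: gatagtggtatagtaactgg
LINC00662-ASO-1: tgtagtctcttatctgcacc
LINC00662-ASO-2: actctgtctcaaataacttg
LINC00662-ASO-3: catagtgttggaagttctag
ASOXNC23: ttctccgaacgtgtcacgtt
The first 3 were complementary to the minus strand of GRCh37 at chr3:9432018-9432037, chr3:9432087-9432106 and chr3:9432132-9432151, all in exons of SETD5-AS1. The pair against LINC00641 matched exons of that gene at chr14:21668966-21668985 and chr14:21668698-21668717, again on the minus strand, and the first of them had 2 exact sites in the genome. LINC00662-ASO-1 matched an exon of LINC00662 on the minus strand at chr19:28284662-28284681. LINC00662-ASO-2 had 0 exact sites in the genome, and LINC00662-ASO-3 had 112, including a site in an exon of LINC00662 at chr19:28281738-28281757, also on the minus strand. ASOXNC23, the negative control, had 0 exact sites. The search read the genome without splicing, so a site across an exon junction would be missed. The sources used here do not say which of the listed oligonucleotides was given to the cells that were sequenced. None of the 9 oligonucleotides listed for these targets and the control had a run of 10 or more complementary bases in the genes of SRSF1, SRSF2, SRSF3, SRSF6 or SRSF10. The longest run among the members was 13 bases, of an ASO listed for LINC00662, in SRSF5 and SRSF11, and 53.9% of the 18529 genes compared held a run as long.

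The 18 Chrom-seq libraries held 10012172 to 17558305 counts each, and the 17 RNA-seq libraries held 8258859 to 15330874. The members were well covered, with 373 counts at the lowest (Srsf9, Neuro-2a), and all 10 passed the filter on low counts in each comparison. Defining markers of the labelled line were above 1 CPM in every library of its table for 6 of 7 genes in HCT116, 6 of 6 in HEK293T, 7 of 7 in NIH3T3 and 8 of 8 in Neuro-2a. In the HEK293T tables this did not set the lines apart, since 5 of 7 HCT116 markers also passed, with sums of 326 to 491 CPM in the CBX7 experiment and 290 to 677 CPM in the ASO experiment, against 407 to 714 and 456 to 738 CPM for the HEK293T markers. Each ASO lowered its own target, SETD5-AS1 from 50.8 to 51.7 CPM with NC to 4.01 to 4.79 CPM, LINC00641 from 37.1 to 41.4 CPM to 0.931 to 1.95 CPM, and LINC00662 from 11.98 to 13.82 CPM to 1.25 to 2.0 CPM. The reader genes were higher in reader libraries, with CBX7 at 39.8 to 43.7 CPM against 14.7 to 18.6 CPM in RNA-seq. TAF3 was at 32.1 to 32.9 CPM against 22.7 to 25.3 CPM in HCT116, and Taf3 at 7910 to 9099 CPM against 124 to 134 CPM in NIH3T3. In Neuro-2a, Taf3 was at 1573 to 1854 CPM against 174 to 201 CPM. The study took its TAF3 and CBX7 readers from the mouse proteins, and how many construct reads count toward the human genes was not tested. These values therefore do not compare reader expression between human and mouse lines. TAF3 replicate 1 of Neuro-2a stood apart, since its counts differed from those of the other TAF3 libraries by a chi-square of 36.2 and 41.4 per gene, where the others differed by 3.35.

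Levels are CPM, counts per 1000000 counts of the library, after TMM scaling over all libraries of a table. The SR genes were abundant, and their summed level was 2544 CPM in the HCT116 control group, 1970 CPM in the NIH3T3 control group and 2096 CPM in the Neuro-2a control group. In HEK293T RNA-seq it was 3302 CPM in the control group and 4117 CPM with NC. Cell line, species and assay differ between these values, and their parts cannot be told apart. To order the genes, CPM was divided by the gene span in kb that the tables give. In HEK293T control RNA-seq, SRSF1, the prototype of the family, was highest at 56.5 ± 4.56 CPM per kb, followed by SRSF2, the marker of nuclear speckles, at 42.6 ± 1.52. SRSF5 was lowest at 9.44 ± 0.770 (SD, n = 3 each). Between them, SRSF6 and SRSF4 did not differ beyond their spread, nor did the neighbours from SRSF7 through SRSF9, SRSF10 and SRSF11 to SRSF3. In the HCT116 control group, SRSF6 was first at 71.8 ± 2.23 CPM per kb, with SRSF2 at 65.6 ± 4.39 within its spread, and SRSF10 was last at 7.83 ± 0.0419. In the NIH3T3 control group, Srsf5 was first at 70.7 ± 2.80 and Srsf4 last at 4.37 ± 0.163, and in the Neuro-2a control group the same genes were first, at 56.6 ± 4.97, and last, at 6.57 ± 0.409. The span of SRSF5 is 45.1 kb in the human table and 5.00 kb in the mouse tables, so its place depends on the annotation. Per kb of the principal transcript, an alternative chosen after seeing the data, most of these places changed. In HEK293T control RNA-seq, SRSF4 was first at 395 ± 40.5 and SRSF10 last at 33.8 ± 3.68, with SRSF1 at rank 7. In the HCT116 control group, SRSF4 moved from rank 7 to first, at 155 ± 7.57, and SRSF6 from first to rank 5, at 93.7 ± 2.91, while SRSF10 stayed last. In the mouse control groups, Srsf5 stayed first, at 225 ± 8.94 in NIH3T3 and 181 ± 15.9 in Neuro-2a. There Srsf4 moved from last to ranks 6 and 4, and Srsf1 was last at 9.35 ± 0.946 and 8.90 ± 0.632. Levels of SRSF1 are uncertain, since 47.5% of its span lies within the readthrough gene RP11-159D12.5 on the same strand.

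**Figure D1:**
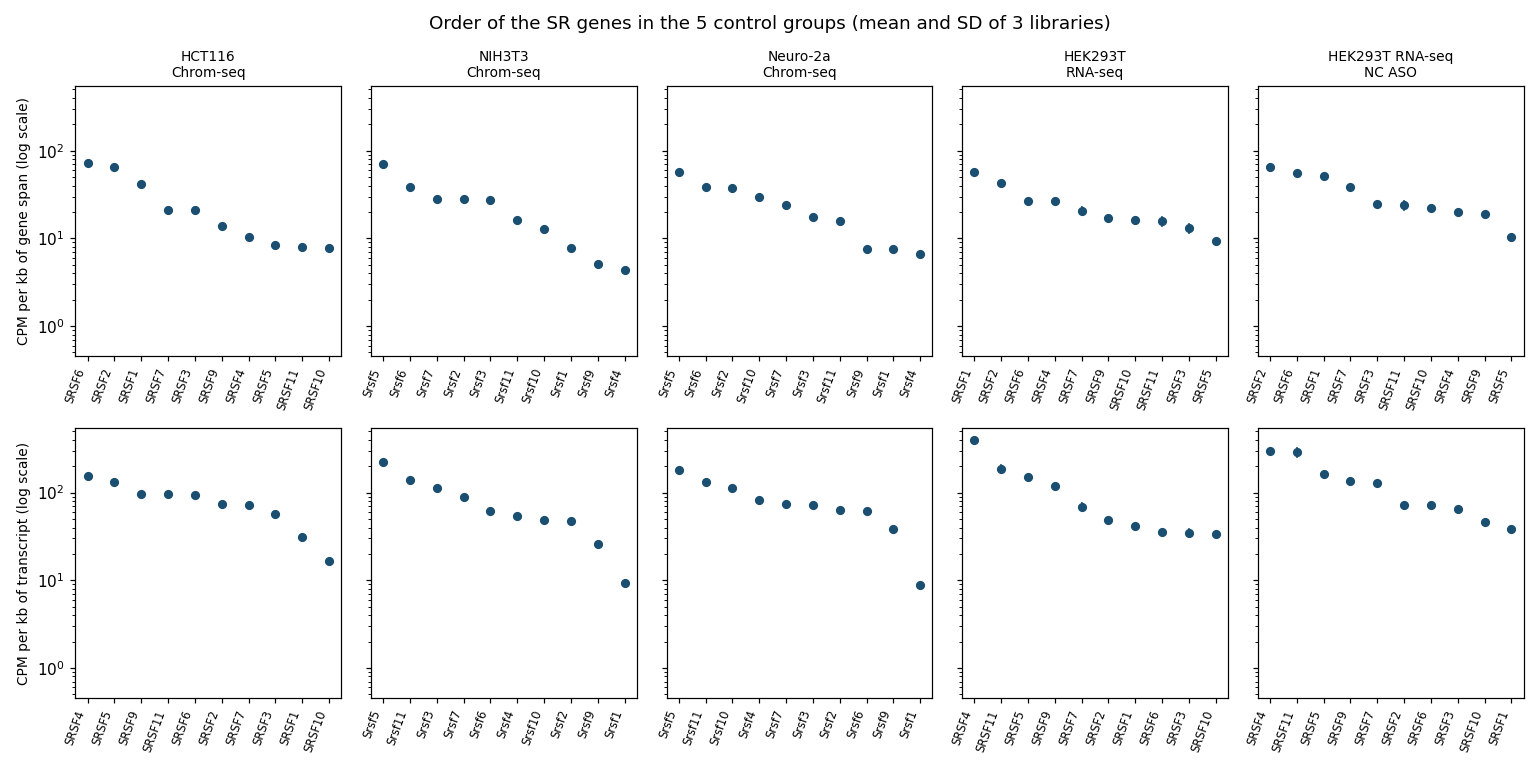
CPM per kb of gene span (upper row) and per kb of the principal transcript (lower row), both on a log scale, for the 10 SR genes in the 5 control groups; points are means of 3 libraries and bars the SD. Within each panel the genes stand in the order of their level, and the order differs between the rows. Srsf5 is first in both mouse lines by either length.

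The first question was whether the transcripts of the SR genes were recovered more with the H3K4me3 reader than in the reader-free control. The samples hold no RNA-seq of HCT116, NIH3T3 or Neuro-2a cells. A change in RNA level with the reader and more labelling near the mark therefore cannot be told apart. In HCT116 cells, SRSF2 and SRSF3 were recovered about 1.46 and 1.37 times as much with TAF3 as in the control, and SRSF6, SRSF7, SRSF1 and SRSF10 by smaller amounts, while SRSF4, SRSF5, SRSF9 and SRSF11 had log2 fold changes between −0.12 and 0.00 and did not pass the test. Calls were made with edgeR's quasi-likelihood test and Benjamini-Hochberg adjustment over all genes tested. To be called, a gene needed adjusted p under 0.05 together with a change of 0.75 or more on the log2 scale. Of the 10 members, 0 were called, by edgeR or by DESeq2, against 6.62% of the 18731 genes tested. At an adjusted p under 0.05 of any size, 6 members were higher and 0 lower, against 17.9% and 17% of all genes, and 7 members had an unadjusted p under 0.05, against 43.1%. In 5 members every TAF3 library was above every control library, against 22.2% of all genes, and in 0 below, against 22.4%. The members' median log2 fold change was 0.15, beside −0.01 over all genes. Mitochondrial genes took 11.7% to 13.1% of counts with TAF3 and 13.7% to 14.1% in the control, and their part in these differences was not tested. In bulk libraries, fewer cells of a type and less RNA per cell cannot be told apart.

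SRSF2 (ENSG00000161547.10, hg19 chromosome 17, 74730197 to 74733456, minus strand) had 216, 198 and 227 CPM in the control libraries and 304, 331 and 297 CPM with TAF3. The groups did not overlap, and the log2 fold change was 0.54 (SE 0.0572, edgeR adjusted p 2.37e-10). MFSD11 and RP11-318A15.7 overlap SRSF2 on the opposite strand. MFSD11 had a log2 fold change of −0.04, while RP11-318A15.7, at 1.64 to 8.23 CPM, rose by 1.29 on the log2 scale with an edgeR adjusted p of 0.000316. Its reads cannot be told apart from those of SRSF2 if the counting did not use strand. SRSF3 (ENSG00000112081.12, chromosome 6, 36562145 to 36573377, plus strand), the smallest SR protein and an adaptor for mRNA export through NXF1, had 238, 228 and 248 CPM in the control and 329, 321 and 326 CPM with TAF3. Its groups were also apart, with a log2 fold change of 0.45 (SE 0.0534, edgeR adjusted p 3.74e-09). SRSF6 (ENSG00000124193.10, chromosome 20, 42086568 to 42092245, plus strand), which carries paired RNA recognition motifs, had 393, 413 and 417 CPM in the control and 475, 468 and 493 CPM with TAF3. The log2 fold change was 0.23 (SE 0.0515, edgeR adjusted p 0.000305).

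The other rises in HCT116 were smaller and less stable. SRSF7, which holds a zinc knuckle, had 165, 171 and 170 CPM in the control and 196, 186 and 187 CPM with TAF3, with log2 fold change 0.17 (edgeR adjusted p 0.0119), or 0.0631 without TAF3 replicate 1. SRSF10, known as a repressor of splicing when dephosphorylated after heat shock, had 127, 127 and 126 CPM in the control and 138, 139 and 140 CPM with TAF3. Its 10.3% difference gave an edgeR adjusted p of 0.0499, and of 0.0506 to 0.153 when any library was left out. SRSF1 had 174, 159 and 171 CPM in the control and 170, 198 and 192 CPM with TAF3, so its groups overlapped. The log2 fold change was 0.15 with an edgeR adjusted p of 0.0397, which rose to between 0.0552 and 0.203 without control replicate 2 or 3 or TAF3 replicate 2 or 3. The readthrough gene that covers part of SRSF1 went the other way, with log2 fold change −0.50 (edgeR adjusted p 2.06e-08). SRSF5, known to respond to growth signals, had 379, 375 and 374 CPM in the control and 373, 379 and 371 CPM with TAF3, and the 95% interval of its log2 fold change was −0.10 to 0.10. SRSF11, an SR-related protein that binds U2AF, had 365, 369 and 397 CPM in the control and 366, 332 and 338 CPM with TAF3. Its log2 fold change of −0.12 had an edgeR adjusted p of 0.0671, and passed the test without control replicate 1 (0.043) or TAF3 replicate 1 (0.0397).

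**Figure D2:**
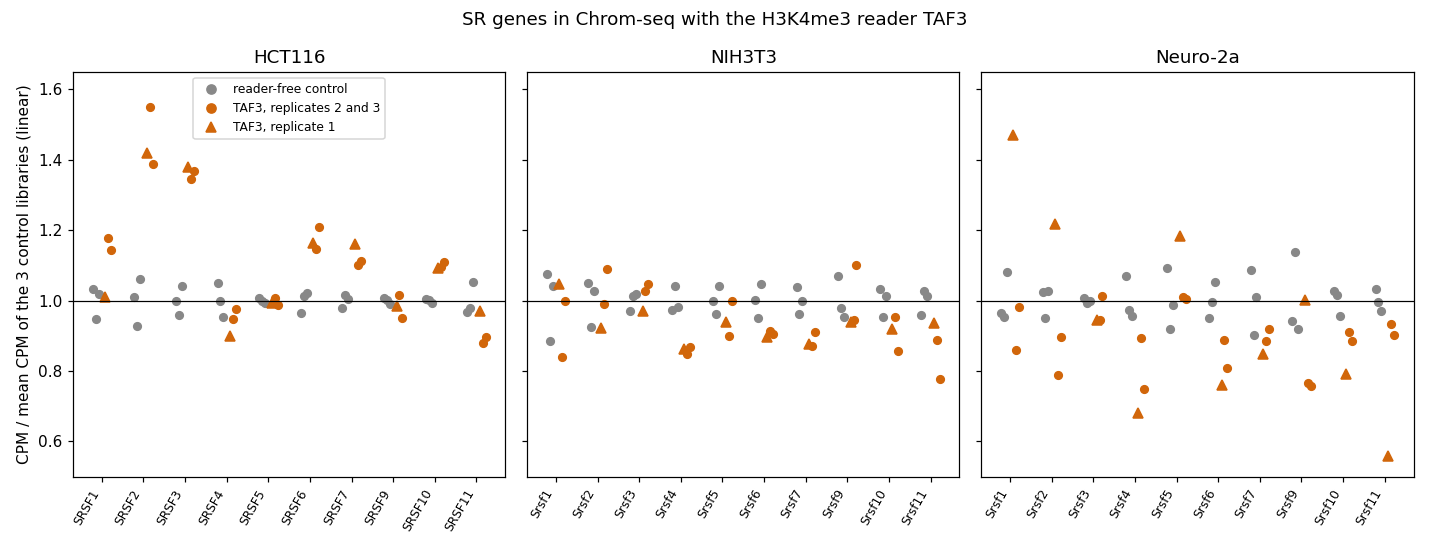
CPM of each Chrom-seq library divided by the mean of the 3 control libraries (linear axis, not starting at 0) for the 10 SR genes in HCT116, NIH3T3 and Neuro-2a cells; gray points are reader-free controls, orange points TAF3 replicates 2 and 3, and orange triangles TAF3 replicate 1. SRSF2 and SRSF3 stand highest in HCT116, and in Neuro-2a the triangles lie away from the orange points for Srsf1, Srsf2 and Srsf11.

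H3K4me3 lies at promoters. SRSF2, SRSF3, SRSF6, SRSF7 and SRSF10 passed the test as higher with TAF3 in HCT116 and were lower with each ASO than with NC. Promoter sequences of SRSF7 and SRSF10 were also found but are not shown. The promoters of SRSF3 and SRSF6 are shown as examples. They are RefSeq sequences of GRCh38.p14, 250 bases before to 50 after the start of the gene. Capitals mark a GC box, a CCAAT box, a TATA box or the core bound by ETS factors, each on either strand, in the letters given after the sequences.
SRSF3 promoter: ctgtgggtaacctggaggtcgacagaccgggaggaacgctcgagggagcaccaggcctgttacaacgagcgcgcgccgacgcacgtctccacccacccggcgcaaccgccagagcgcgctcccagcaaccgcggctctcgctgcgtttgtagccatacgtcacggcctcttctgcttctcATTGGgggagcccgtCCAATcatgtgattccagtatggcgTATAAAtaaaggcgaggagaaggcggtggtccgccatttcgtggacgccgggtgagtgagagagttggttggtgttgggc
SRSF6 promoter: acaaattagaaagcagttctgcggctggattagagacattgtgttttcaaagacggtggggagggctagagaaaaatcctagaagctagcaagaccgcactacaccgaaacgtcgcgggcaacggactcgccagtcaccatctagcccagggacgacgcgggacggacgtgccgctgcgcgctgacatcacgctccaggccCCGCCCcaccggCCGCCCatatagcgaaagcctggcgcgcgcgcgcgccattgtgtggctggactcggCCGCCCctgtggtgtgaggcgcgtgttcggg
The SRSF3 promoter is at chr6:36594112-36594411 on the plus strand, with 62.3% G and C, 30 CpG sites, 2 CCAAT boxes and a TATA box. The SRSF6 promoter is at chr20:43457646-43457945 on the plus strand, with 62.7% G and C, 33 CpG sites and 3 GC boxes. Promoter sequences were found for 9 of the 10 members, all but SRSF2, and SRSF7 and SRSF11 had 2 each. A member was counted if any of its promoters held the letters, while the shares count single promoters. The GC box, GGGCGG, was in those of SRSF4, SRSF6, SRSF7 and SRSF11, against 45% of all 35116 promoters. SRSF11 did not hold it in both of its promoters. The CCAAT box was in that of SRSF3 alone among the members, against 34.6% of all promoters. The TATA box, searched as TATAAA, was in those of SRSF3, SRSF7 and SRSF11, against 11.5% of all promoters. Neither SRSF7 nor SRSF11 held it in both of its promoters. The core bound by ETS factors, searched as CCGGAA, was in those of SRSF4 and SRSF5, against 17.2% of all promoters. These matches describe letters in a window and were not tested against binding or labelling.

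In the mouse lines, 0 of the SR genes passed the test as higher with TAF3, in NIH3T3 or in Neuro-2a cells. In NIH3T3 cells, 0 of 10 members were called by edgeR or by DESeq2, against 11.1% of the 19220 genes tested. At an adjusted p under 0.05, 3 were lower and 0 higher, against 9.79% and 13.8% of all genes, and 5 had an unadjusted p under 0.05, against 33.9%. In 5 members every TAF3 library was below every control library, against 16.7% of all genes, and in 0 above, against 20.2%. The members' median log2 fold change was −0.10, beside 0.02 over all genes. Srsf4 (ENSMUSG00000028911.16, mm10 chromosome 4, 131873617 to 131901706), a large SR protein with paired RNA recognition motifs, had 120, 128 and 121 CPM in the control and 106, 104 and 106 CPM with TAF3. The log2 fold change was −0.21 (SE 0.0607, edgeR adjusted p 0.0109), or 0.0756 without control replicate 2. Srsf11 had 411, 441 and 435 CPM in the control and 402, 381 and 334 CPM with TAF3, log2 fold change −0.20 (edgeR adjusted p 0.0178). The adjusted p of Srsf11 was 0.0844 without control replicate 2, 0.0624 without control replicate 3 and 0.096 without TAF3 replicate 3. Srsf7 had 209, 194 and 201 CPM in the control and 177, 175 and 184 CPM with TAF3, log2 fold change −0.17 (edgeR adjusted p 0.0309). The adjusted p of Srsf7 was 0.16 without control replicate 1, 0.0676 without control replicate 3, 0.101 without TAF3 replicate 1 and 0.0917 without TAF3 replicate 2. With library size alone in place of TMM, 0 members passed at an adjusted p under 0.05. Srsf6 and Srsf10 had groups that did not overlap, with log2 fold changes of −0.14 and −0.13 and edgeR adjusted p of 0.073 and 0.112. Srsf2 and Srsf3, whose human forms rose in HCT116, had log2 fold changes of 0.01 and 0.03, with 95% intervals of −0.14 to 0.15 and −0.08 to 0.14.

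In Neuro-2a cells, edgeR and DESeq2 called 0 of 10 members, against 1.03% of the 17006 genes tested. At an adjusted p under 0.05 the count was also 0, against 1.24% in either direction, and 3 members had an unadjusted p under 0.05, against 16.2%. In 4 members, Srsf4, Srsf6, Srsf10 and Srsf11, every TAF3 library was below every control library, against 12.6% of all genes, and in 0 above, against 13.2%. Mitochondrial genes took 2.86% to 3.44% of counts with TAF3 and 3.58% to 3.80% in the control, and their part was not tested. TAF3 replicate 1 lay apart from the other TAF3 libraries in Srsf1, Srsf2 and Srsf11. Srsf11 had 427, 413 and 401 CPM in the control, 232 CPM in TAF3 replicate 1, and 386 and 373 CPM in the other TAF3 libraries. Srsf1 went the other way, with 46.1, 45.5 and 51.6 CPM in the control, 70.2 CPM in TAF3 replicate 1 and 41.1 and 46.9 CPM in the others. Without that library, 4 members were lower at an edgeR adjusted p under 0.05, against 8.64% of all genes. Srsf4 then had a log2 fold change of −0.27 (adjusted p 0.00624), Srsf9 of −0.38 (0.012), Srsf6 of −0.23 (0.0138) and Srsf2 of −0.24 (0.0213). The TAF3 difference itself was compared between the mouse lines by an interaction term over 12 libraries. Of the 10 members, 0 were called by edgeR or DESeq2, against 3.05% of 19509 genes, and 0 had an unadjusted p under 0.05, against 13.8%. The differences, Neuro-2a minus NIH3T3, ran from −0.25 (Srsf9, 95% interval −0.62 to 0.12) to 0.19 (Srsf1, −0.25 to 0.62).

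In HEK293T RNA-seq, cells with the CBX7 reader were compared with the control cells. From the correlation of their profiles over the transcriptome, the study reported no overt effect of the components and biotin-aniline. What the control cells carried could not be settled, so the comparison may show all the components or the reader alone. Of the SR genes, SRSF10, SRSF3, SRSF7, SRSF6 and SRSF2 were 1.53 to 1.75 times as high with CBX7, and SRSF4 fell by 37.7%. One member, SRSF10, was called, so the count was 1 higher and 0 lower, against 4.17% and 3.48% of the 18204 genes tested. At an adjusted p under 0.05, 5 members were higher and 1 lower, against 13.8% and 15.4% of all genes. These were also the members whose groups did not overlap, 5 higher against 19.5% and 1 lower against 22.8% of all genes. The members' summed level was 3147 to 3427 CPM in the control libraries and 3351 to 3472 CPM with CBX7, so the rises and the fall of SRSF4 left the sums overlapping.

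SRSF10 (ENSG00000188529.10, hg19 chromosome 1, 24291294 to 24307417, minus strand) had 251, 235 and 290 CPM in the control and 487, 417 and 450 CPM with CBX7. Its log2 fold change was 0.81 (SE 0.0885, edgeR adjusted p 1.26e-05), and 0.75 without CBX7 replicate 1, which is just under the threshold. SRSF3 had 131, 170 and 141 CPM in the control and 222, 245 and 267 CPM with CBX7. Its log2 fold change of 0.73 lay near the threshold, and it was called with DESeq2 (0.75), without CBX7 replicate 1 (0.80) and without control replicate 2 (0.86). Each of these rises was larger than the spread within either group.
SRSF7 had 149, 187 and 154 CPM in the control and 254, 275 and 267 CPM with CBX7, log2 fold change 0.71 (edgeR adjusted p 4.87e-05), and was called without control replicate 2 (0.83). SRSF6 had 147, 155 and 157 CPM in the control and 227, 239 and 240 CPM with CBX7, log2 fold change 0.63 (edgeR adjusted p 2.23e-05). SRSF2 had 140, 143 and 134 CPM against 219, 201 and 214 CPM, log2 fold change 0.61 (edgeR adjusted p 4.18e-05). In each of them the lowest CBX7 library stood above the highest control library.

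SRSF4 (ENSG00000116350.11, chromosome 1, 29474255 to 29508499, minus strand) was the member that fell, with 983, 804 and 937 CPM in the control and 624, 526 and 539 CPM with CBX7. Its log2 fold change was −0.68 (SE 0.0888, edgeR adjusted p 4.95e-05). It was called without CBX7 replicate 1 (−0.77) and without control replicate 2 (−0.75). SRSF11 had 742, 640 and 848 CPM in the control and 638, 664 and 554 CPM with CBX7, log2 fold change −0.26 (edgeR adjusted p 0.0501). With the replicate number as a block, its adjusted p was 0.0195, and without control replicate 2 it was 0.00216. SRSF1, SRSF5 and SRSF9 had log2 fold changes of 0.09, 0.08 and −0.05, with 95% intervals of −0.07 to 0.26, −0.08 to 0.24 and −0.22 to 0.13. The share of mitochondrial counts was 2.57% to 2.67% with CBX7 and 2.87% to 3.11% in the control, and its part in these differences was not tested.

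**Figure D3:**
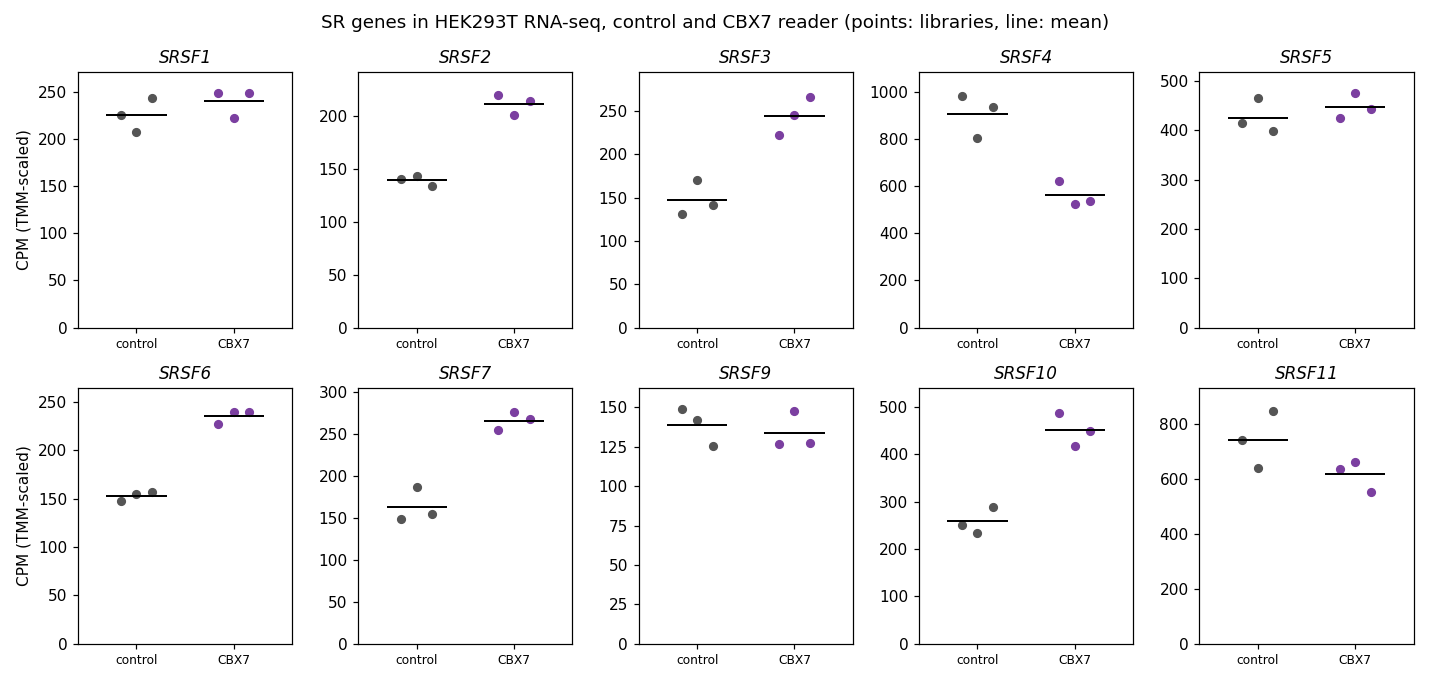
CPM (linear axis from 0) of the 10 SR genes in HEK293T RNA-seq, 3 control libraries (gray) and 3 with the CBX7 reader (purple); points are libraries and lines group means. The groups are apart for SRSF2, SRSF3, SRSF6, SRSF7 and SRSF10, higher with CBX7, and for SRSF4, lower with CBX7.

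The ASO groups gave the largest changes of the SR genes. Compared with NC, SRSF6 fell by 45.8% with the LINC00662 ASO and fell by 51.1% with the LINC00641 ASO, and SRSF11 fell by 31.1% with the LINC00662 ASO and fell by 50.5% with the SETD5-AS1 ASO. SRSF2, SRSF3, SRSF7 and SRSF10 also fell in each comparison, while SRSF1 and SRSF9 ranged from −0.10 to 0.26 on the log2 scale. All 3 comparisons use the same 3 NC libraries, so they are not independent of each other. In the SETD5-AS1 comparison 2 members were called, both lower, against 11.5% of the 18544 genes tested. With the LINC00641 ASO 2 members were called lower, against 11.5% of 18503, and with the LINC00662 ASO 1 was called lower, against 13.3% of 18562. Called higher were 0 members in each, by edgeR and by DESeq2, against 12.9%, 11% and 11.6% of all genes. Without the size threshold, at an adjusted p under 0.05, 8 members were lower with the SETD5-AS1 ASO, against 25.8% of all genes, 6 with the LINC00641 ASO, against 24.4%, and 7 with the LINC00662 ASO, against 26.8%. Those higher were 0, 0 and 2, against 26.9%, 25.2% and 27.6%. In 7 members of each comparison every ASO library lay below every NC library, against 25.8%, 29.4% and 29.6% of all genes, and 0, 0 and 2 lay above, against 33.3%, 36.5% and 30.5%. The members' median log2 fold changes were −0.36, −0.26 and −0.42, beside 0.03, 0.00 and 0.00 over all genes. CPM here is scaled over all 11 ASO libraries and fold changes within each comparison's own libraries, so ratios of CPM can differ slightly from the fold changes.

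SRSF6 had 319, 300 and 331 CPM with NC, 163, 169 and 178 CPM with the SETD5-AS1 ASO, 150 and 173 CPM with the LINC00641 ASO and 188, 168 and 161 CPM with the LINC00662 ASO. All 8 ASO libraries lay below the lowest NC library. The log2 fold changes were −0.96, −1.03 and −0.88, with standard errors of 0.0768, 0.0877 and 0.0701 and edgeR adjusted p of 1.25e-08, 8.07e-09 and 4.66e-11. Leaving out any library kept SRSF6 called in each comparison, with log2 fold changes from −1.14 to −0.83.

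SRSF11 (ENSG00000116754.9, hg19 chromosome 1, 70671365 to 70718735, plus strand) had 952, 1216 and 1242 CPM with NC, the highest of the members there by CPM. It had 683, 535 and 548 CPM with the SETD5-AS1 ASO, 756 and 565 CPM with the LINC00641 ASO and 805, 760 and 796 CPM with the LINC00662 ASO. All ASO libraries were below the NC libraries, although NC replicate 1 lay well under the other NC libraries. The log2 fold changes were −1.02, −0.84 and −0.54, with standard errors of 0.106, 0.116 and 0.0753 and edgeR adjusted p of 3.15e-07, 4.35e-06 and 9.81e-07. The last is under the fold-change threshold. Without LINC00641 ASO replicate 3, which leaves that group with 1 library that is assumed to vary like the NC libraries, the log2 fold change was −0.65 and SRSF11 was not called.

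SRSF10 had 340, 366 and 366 CPM with NC, 266, 242 and 211 CPM with the SETD5-AS1 ASO, 259 and 237 CPM with the LINC00641 ASO and 248, 226 and 246 CPM with the LINC00662 ASO. Its log2 fold changes were −0.64, −0.59 and −0.58, with edgeR adjusted p of 5.93e-06, 4.34e-06 and 1.98e-08, and none reached the fold-change threshold. SRSF2 had 206, 189 and 237 CPM with NC and 143 to 178 CPM in the 8 libraries of the other groups, all below. Its log2 fold changes were −0.43, −0.45 and −0.48, with edgeR adjusted p of 0.000436, 0.00125 and 4.61e-06. SRSF7 had 308, 314 and 298 CPM with NC, 245, 250 and 295 CPM with the SETD5-AS1 ASO, 257 and 276 CPM with the LINC00641 ASO and 213, 205 and 215 CPM with the LINC00662 ASO. The last group was lowest, and the log2 fold changes were −0.29, −0.26 and −0.55, with edgeR adjusted p of 0.00688, 0.00822 and 3.18e-08. SRSF3 had 290, 281 and 262 CPM with NC and 217 to 221 CPM with the LINC00662 ASO, log2 fold change −0.35 (edgeR adjusted p 3.9e-05). SRSF3 had smaller changes with the SETD5-AS1 ASO (−0.23, edgeR adjusted p 0.0164) and the LINC00641 ASO (−0.26, 0.0137). These did not hold throughout, at 0.0841 without NC replicate 1, 0.0547 and 0.0719 without SETD5-AS1 ASO replicate 1 or 2, and 0.0616 and 0.187 without NC replicate 1 or LINC00641 ASO replicate 2. The fall of SRSF7 with the LINC00641 ASO had an adjusted p of 0.109 without replicate 2 of that group.

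SRSF4 and SRSF5 fell most with the SETD5-AS1 ASO. SRSF4 had 717, 684 and 657 CPM with NC, 563, 575 and 526 CPM with the SETD5-AS1 ASO, 699 and 675 CPM with the LINC00641 ASO and 710, 702 and 708 CPM with the LINC00662 ASO. Only the first of these groups lay apart from NC, with log2 fold change −0.37 (edgeR adjusted p 0.000296), while the others had −0.06 (95% interval −0.21 to 0.09) and 0.04 (−0.08 to 0.15). SRSF5 had 464, 461 and 465 CPM with NC, 373, 372 and 398 CPM with the SETD5-AS1 ASO, 443 and 437 CPM with the LINC00641 ASO and 406, 426 and 412 CPM with the LINC00662 ASO. Its log2 fold changes were −0.35, −0.14 and −0.17, with edgeR adjusted p of 0.00044, 0.141 and 0.0203. The last was 0.0574 without LINC00662 ASO replicate 1 and 0.0749 without replicate 3.
SRSF9, a small member with paired RNA recognition motifs, had 169, 152 and 143 CPM with NC, 166, 194 and 186 CPM with the SETD5-AS1 ASO, 152 and 150 CPM with the LINC00641 ASO and 175, 190 and 194 CPM with the LINC00662 ASO. It rose with the LINC00662 ASO, by 0.26 on the log2 scale (edgeR adjusted p 0.00295), and its value of 0.17 with the SETD5-AS1 ASO had an adjusted p of 0.114, or 0.0454 without SETD5-AS1 ASO replicate 1. SRSF1 had 203, 205 and 213 CPM with NC and 227, 238 and 232 CPM with the LINC00662 ASO, log2 fold change 0.16 (edgeR adjusted p 0.0329), which was 0.071 to 0.129 without LINC00662 ASO replicate 2 or 3 or NC replicate 1 or 2, and 0.336 with all ASO groups in one fit. With the other ASOs its log2 fold changes were −0.01 and 0.01.

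**Figure D4:**
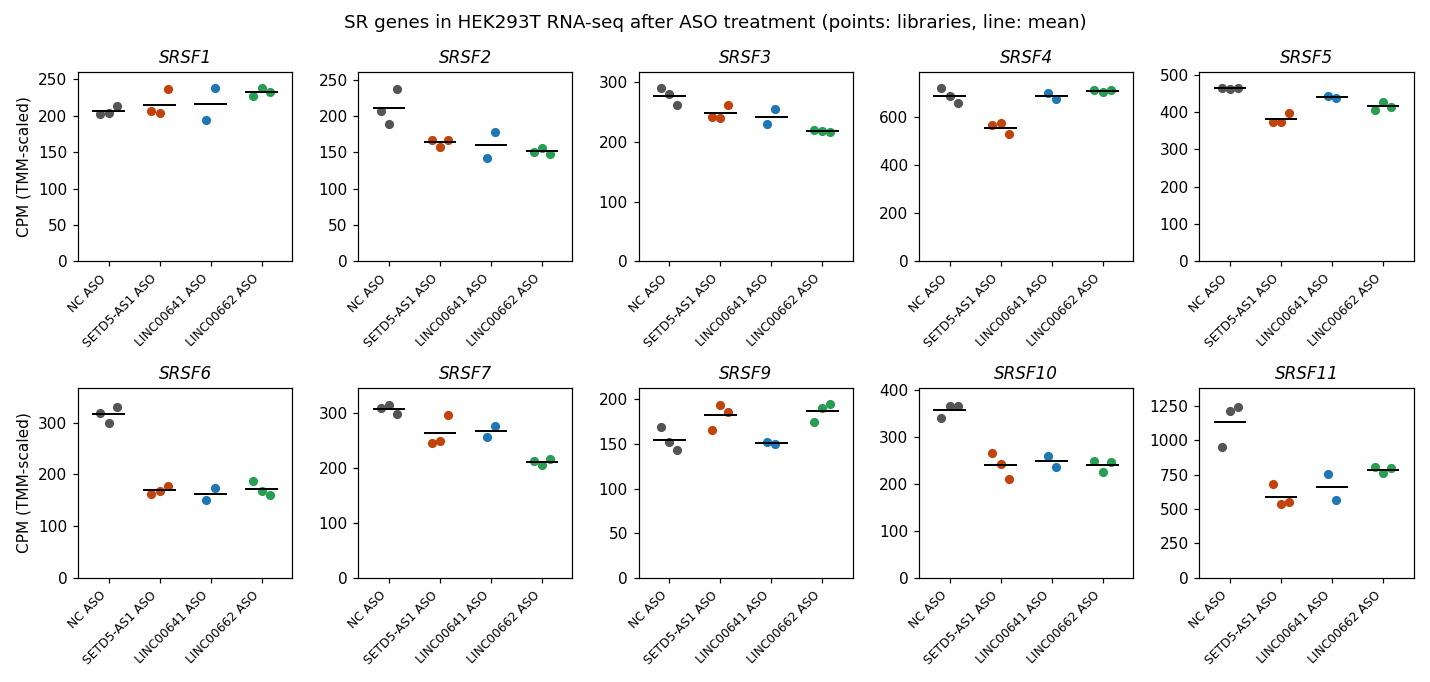
CPM (linear axis from 0) of the 10 SR genes in HEK293T RNA-seq with the NC ASO (gray), the SETD5-AS1 ASO (red), the LINC00641 ASO (blue) and the LINC00662 ASO (green); points are libraries and lines group means. SRSF6, SRSF10 and SRSF11 lie below NC in every ASO library, and SRSF4 does so for the SETD5-AS1 ASO group.

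The NC libraries differed from the other ASO libraries in more than the SR genes. Genes with a span of at least 100 kb took 11.3% to 11.6% of counts with NC and 14.5% to 15.4% in the other groups, and mitochondrial genes took 3.05% to 3.48% with NC and 2.18% to 2.93% in the others. SETD5-AS1 itself was at 28.5 to 31.0 CPM in the libraries of the other ASOs, against 50.8 to 51.7 CPM with NC. HEK293T control RNA-seq, whose labels name no ASO, was a separate experiment scaled on its own. There SRSF6, SRSF10 and SRSF11 averaged 153, 258 and 743 CPM, against 317, 358 and 1137 CPM with NC. SRSF1 and SRSF4 went the other way, at 225 and 908 CPM against 207 and 686 CPM with NC. The members' summed level was 3302 CPM there, 4117 CPM with NC and 3006 to 3321 CPM with the other ASOs. Whether NC raised the SR genes or the other ASOs lowered them was not tested. The part of these differences in the falls of the SR genes was also not tested. The choice of scaling mattered most for the SETD5-AS1 ASO. With library size alone, the median over all genes moved from 0.03 to 0.17 in log2 units and the share of higher genes among all calls from 52.8% to 66.5%. With that scaling 6 members were lower and 1, SRSF9 (0.31, edgeR adjusted p 0.00572), was higher at an adjusted p under 0.05, and SRSF6 and SRSF11 were still called lower. The falls of SRSF7 and SRSF3 then had adjusted p of 0.141 and 0.323.

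The ASO groups were also compared directly, without the NC libraries. In all 3 contrasts edgeR and DESeq2 called 0 members, against 1.72% of genes for SETD5-AS1 against LINC00641, 11.1% for LINC00662 against SETD5-AS1 and 8.41% for LINC00662 against LINC00641. Members with an unadjusted p under 0.05 numbered 3, 4 and 4, against 20.9%, 42% and 35.6% of all genes, so the last 2 counts were near the share over all genes. SRSF6 had log2 differences of 0.08 (95% interval −0.10 to 0.26), 0.02 (−0.13 to 0.17) and 0.10 (−0.06 to 0.26). SRSF10 had differences of −0.05 (−0.24 to 0.15), 0.00 (−0.15 to 0.16) and −0.05 (−0.19 to 0.09). Without the size threshold, 1 member differed between SETD5-AS1 and LINC00641, against 5.9% of genes, 4 between LINC00662 and SETD5-AS1, against 32.3%, and 3 between LINC00662 and LINC00641, against 24.6%. SRSF4 was higher with the LINC00662 ASO than with the SETD5-AS1 ASO by 0.35 on the log2 scale (edgeR adjusted p 0.000305), and its difference of −0.31 between SETD5-AS1 and LINC00641 had an edgeR adjusted p of 0.0372, which was 0.0976 to 0.245 without LINC00641 ASO replicate 2 or 3 or SETD5-AS1 ASO replicate 1 or 2. SRSF11 was higher with the LINC00662 ASO than with the SETD5-AS1 ASO by 0.42 (edgeR adjusted p 0.000694). Its difference of 0.26 from LINC00641 had an edgeR adjusted p of 0.0446, but 0.663 and a log2 difference of 0.06 without LINC00641 ASO replicate 3, and 0.0645 to 0.107 without any LINC00662 ASO library. SRSF7 was lower with the LINC00662 ASO than with either other ASO, by 0.32 and 0.33 on the log2 scale (edgeR adjusted p 0.00408 and 0.00104). SRSF9 was higher with the LINC00662 ASO than with the LINC00641 ASO by 0.31 (edgeR adjusted p 0.00309), and SRSF3 was lower with the LINC00662 ASO than with the SETD5-AS1 ASO by 0.18 (edgeR adjusted p 0.0498, and 0.0591 to 0.142 when any library was left out).

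**Figure D5:**
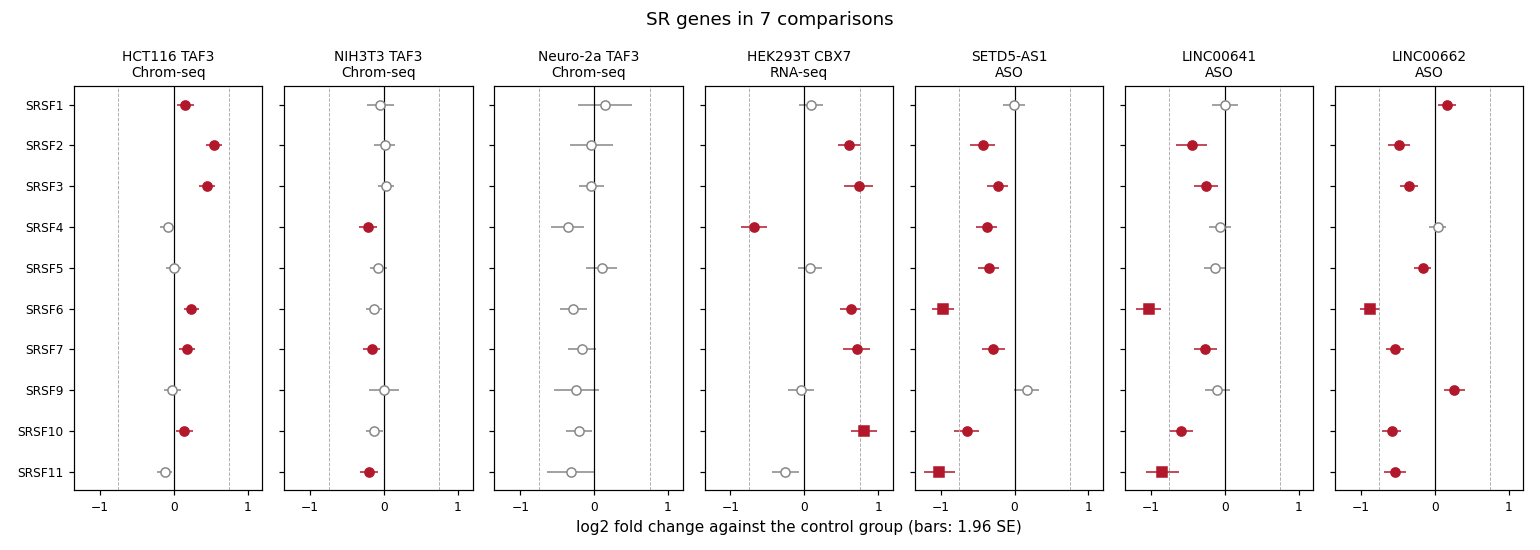
Log2 fold change against the control group (axis in log2 units, bars 95% intervals from the standard error) of the 10 SR genes in 7 comparisons, with mouse genes under the human symbol. Squares passed both thresholds, filled points an adjusted p under 0.05 alone and open points neither; dashed lines mark 0.75. The squares are SRSF10 with CBX7, SRSF6 with each ASO and SRSF11 with the SETD5-AS1 and LINC00641 ASOs, and the last 3 panels share their NC libraries.

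Partners of the SR proteins were read in lists of related genes, against the 11.5%, 11.5% and 13.3% of all genes called lower and the 12.9%, 11% and 11.6% called higher with the SETD5-AS1, LINC00641 and LINC00662 ASOs. Among other SR and SR-related proteins, 4 of 17 tested were called lower and 0 higher with the SETD5-AS1 ASO, 4 lower and 0 higher with the LINC00641 ASO, and 0 lower and 1 higher with the LINC00662 ASO. The shares called lower were 23.5%, 23.5% and 0%. The largest fall was that of SRSF8, an intronless relative of SRSF2, from 18.8 ± 1.38 CPM with NC to 7.83 ± 0.430 CPM with the SETD5-AS1 ASO (SD, n = 3 each), log2 fold change −1.32 (edgeR adjusted p 1.09e-07). BCLAF1 followed at −0.83, U2AF2, which binds the polypyrimidine tract, was at −0.80 with the LINC00641 ASO, and ACIN1, a component of exon junction complexes, was at 0.91 with the LINC00662 ASO. Of 9 kinases of SR proteins, CLK1 (−0.91) and PRPF4B (−0.83) were the 2 called lower with the SETD5-AS1 ASO, 0 were called with the LINC00641 ASO, and SRPK2 (−1.17) and CLK4 (0.79) were called in opposite directions with the LINC00662 ASO. SRPK2 had 22.4 ± 3.88 CPM there against 50.2 ± 5.68 CPM with NC and 77.9 ± 9.32 CPM with the SETD5-AS1 ASO. Of 9 NMD factors tested, 1, 2 and 3 were called higher with the 3 ASOs in that order and 0 lower. These are 11.1%, 22.2% and 33.3% of a short list, the first of them near the share over all genes. They included SMG6, the endonuclease, at 0.92 and 0.97 with the first pair of ASOs, UPF3A at 0.93 and 1.07 with the LINC00641 and LINC00662 ASOs, and SMG5 at 0.89 with the latter. Of 21 hnRNP and PTB proteins tested, which often act against SR proteins, 2, 0 and 1 were called lower and 0 higher. These are 9.52%, 0% and 4.76%, each below the share over all genes. HNRNPF was at −0.79 and −0.78 with the SETD5-AS1 and LINC00662 ASOs, and HNRNPA0 at −0.80 with the former. TNPO3, the importin of SR proteins, was the 1 of 5 transport factors called with an ASO, at −0.93 with the LINC00662 ASO.

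In the Chrom-seq comparisons the same lists held few calls. In HCT116, HNRNPAB (0.76) was 1 of 21 hnRNP and PTB proteins called, and NXT1 (0.82), the partner of NXF1, was 1 of 5 transport factors, while 0 of 16 other SR and SR-related proteins, 0 of 9 kinases and 0 of 9 NMD factors were called. Of all genes, 6.62% were called there. At an adjusted p under 0.05, 13 hnRNP and PTB proteins were higher and 2 lower, and 8 other SR and SR-related proteins were higher and 1 lower, beside the 17.9% and 17% of all genes given above. At that threshold 1 kinase was higher and 2 lower, 1 NMD factor was higher and 1 lower, and 4 of 5 transport factors were higher and 0 lower. In NIH3T3, 0 genes of any list were called, against 11.1% of all genes. At an adjusted p under 0.05, against 9.79% of all genes lower and 13.8% higher, the other SR and SR-related proteins had 10 lower and 1 higher of 17, the hnRNP and PTB proteins 9 lower and 1 higher of 23, and the kinases 5 lower and 0 higher of 9. The NMD factors had 1 lower of 10 and the transport factors 1 lower of 5, with 0 higher in either. In Neuro-2a, 0 genes of any list passed at either threshold, against 1.03% of all genes called and 1.24% at an adjusted p under 0.05. With CBX7 in HEK293T RNA-seq, NXF1, the mRNA export receptor that SRSF3 and SRSF7 bind, was the 1 gene of these lists called, against 4.17% of all genes higher and 3.48% lower, at 114 ± 8.77 CPM against 44.2 ± 1.74 CPM (SD, n = 3 each), log2 fold change 1.37 (edgeR adjusted p 1.3e-07).

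Over the 11 ASO libraries, the mean log2 profile of the members was highest in the NC libraries, at 0.22 to 0.25 about its mean, and between −0.14 and −0.06 in the other 8. By Pearson's r with that profile, the nearest of 10897 other genes were SPRY2 (0.996), PNO1 (0.993), UBE2A (0.993), EIF4A2 (0.992) and DBR1 (0.992). Each member was also compared with the mean of the other members. SRSF6 followed it most closely (0.960), then SRSF10 (0.882) and SRSF2 (0.816), whereas SRSF4 was at 0.279, SRSF1 at −0.366 and SRSF9 at −0.611. These values describe 11 libraries that fall into NC and other ASOs and share their scaling, so they carry no test.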

How the data were processed

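The authors deposited whole-number raw read counts for each gene, which they had not normalized. Per the submitters' processing notes and the study's methods, reads were checked with FastQC 0.11.8, trimmed with fastp 0.23.1, aligned to hg19 or mm10 by HISAT2 2.1.0 and assigned to genes by featureCounts 2.0.1, and DESeq2 1.34.0 was run for comparisons. The gene lengths in the tables equal the gene spans, and how strand, shared reads and intronic reads were counted is not given in the sources used here. Of 47 samples, 35 libraries in 5 tables and 12 groups, taken from the sample titles, were used. The other 12 libraries, the HEK293T Chrom-seq, were not analysed here, so the planned TAF3 and CBX7 comparisons in that line and its difference from HCT116 were not run. In the tables used, 0 count columns matched no listed sample.

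For each comparison a separate model of its groups was made with edgeR 4.0.16 in R 4.3.3 (quasi-likelihood test, TMM, Benjamini-Hochberg adjustment over all genes tested), keeping genes whose counts summed to more than 3 per library, 18 over 6 libraries or 15 over 5. Standard errors are the size of the log2 fold change over the root of the F value. The 95% intervals reach 1.96 standard errors to either side. This is a normal approximation, narrower than the F test implies with so few libraries. The scripts were tested on simulated counts. The 34 pairs of replicates had a chi-square per gene of at least 2.48, so none was a copy. Alternatives were leaving out each library, a block for the replicate number, DESeq2 1.42.0 or its size factors within edgeR, scaling by library size alone, the filter of filterByExpr or none, and a joint model of the ASO groups. Same-numbered libraries deviated together in each pair for CBX7 against control (correlations of 0.133 to 0.338) and for LINC00662 against SETD5-AS1 ASOs (0.109 to 0.184), with the numbers taken from the titles. CBX7 replicate 1 also deviated with control replicate 3 (0.199), slightly more than with control replicate 1 (0.182). Whether the numbers pair the samples is therefore not settled. All 10 members are counted in each comparison. Not all are named in the text for the mouse lines, their interaction or the direct ASO contrasts. From each list of related genes at most 2 called genes are named, those of largest change whose groups do not overlap and whose counts average 100 or more. The members and lists were chosen with earlier results of these data known. Promoters are from RefSeq, and protein sequences were not used here.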

Additional observations from a re-analysis of the deposited data

Results flagged for a closer look

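Members whose groups did not overlap in either of 2 TAF3 comparisons, but in opposite directions, are given here. The lines are of different species and the libraries of different tables, so the difference was not tested. SRSF6 had a log2 fold change of 0.23 in HCT116, −0.14 in NIH3T3 and −0.28 in Neuro-2a. SRSF7 had 0.17 in HCT116 and −0.17 in NIH3T3. SRSF10 had 0.14 in HCT116, −0.13 in NIH3T3 and −0.20 in Neuro-2a. Not all of these passed the test. The edgeR adjusted p of SRSF10 was 0.0499 in HCT116, 0.112 in NIH3T3 and 0.307 in Neuro-2a, and that of SRSF6 was 0.073 in NIH3T3 and 0.192 in Neuro-2a.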

How the results depend on the processing

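Among alternative values of the counts of members, 217 stayed within 1.5 times the main count and 10 did not, and 0 fold changes of called members changed sign. In NIH3T3, the count at an adjusted p under 0.05 went from 3 to 0 with library size alone, and was 1 or 2 without any single library. In Neuro-2a it went from 0 to 4 without TAF3 replicate 1, a range of 0 to 4. With CBX7, the called count went from 1 to 2 with DESeq2 size factors, library size alone or DESeq2, SRSF3 being added, and was 1 to 4 without any single library. For the LINC00641 ASO it was 1 to 2. Without any single library, counts at an adjusted p under 0.05 were 4 to 6 in HCT116, 6 to 7 for CBX7, 7 to 8 for SETD5-AS1, 4 to 6 for LINC00641 and 7 to 9 for LINC00662. Between the SETD5-AS1 and LINC00641 ASOs, library size alone moved the share of higher calls among all genes from 60.4% to 71.8%. Over all genes, the calls in Neuro-2a went from 176 to 516 with no filter and 398 with DESeq2, and were 41 to 620 without any single library, the highest without TAF3 replicate 1. The cause of these moves was not tested.

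With the replicate number as a block, the count at an adjusted p under 0.05 was 7 for CBX7, SRSF11 being added to 6. The block changed no other call in the comparisons whose same-numbered libraries deviated together. In the comparisons whose libraries share only a number (correlations of −0.172 to 0.162), the block gave 4 in HCT116 in place of 6 and 8 in place of 9 with the LINC00662 ASO. It gave 0 in place of 1 between the SETD5-AS1 and LINC00641 ASOs, and left the called counts as they were. The planned comparisons of HEK293T Chrom-seq and the fit of all its groups were not run. Strand, shared reads and introns in the counting limit the values of SRSF1 and SRSF2, and the number of libraries limits the precision of small differences.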
